A study of Mus musculus with 6 samples.

Results

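The insulin-like growth factor (IGF) system of bone marrow stromal cells was examined through 10 genes chosen by name: the ligand gene Igf1, the receptor genes Igf1r and Igf2r, the binding protein genes Igfbp3, Igfbp4, Igfbp5, Igfbp6 and Igfbp7, the protease gene Pappa and the adaptor gene Irs1. Of these 10, 9 had a value among the 11890 genes of the deposited table, through 19 of its 23293 named transcripts; Igfbp6 was not analysed here. The genes were chosen with earlier results of these data known. The RNA-seq data held 3 libraries of primary stromal cells from Pth1rΔNLS mice and 3 from wild-type (WT) mice. The series design text calls the Pth1rΔNLS animals heterozygotes, and the name of the allele refers to the nuclear localisation signal of the parathyroid hormone receptor; the study's title concerns nuclear entry of that receptor, thyroid hormone signalling and bone mass. No treatment, age, sex or culture is stated in the sources used here, nor whether libraries came from separate animals. The p-values therefore measure only how these samples vary, and that variation may be technical.

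IGF-I is a secreted peptide hormone that acts through the receptor tyrosine kinase encoded by Igf1r, which phosphorylates IRS adaptor proteins and so engages the PI3K and AKT pathway. Most IGF outside cells is held by binding proteins, and the metalloproteinase PAPP-A releases it by cutting some of them, IGFBP-4 best of all. In bone, IGF-I made by osteoblasts, by marrow cells and by the liver supports bone formation, and parathyroid hormone is a known inducer of Igf1 in osteoblasts.

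Igf1 (chromosome 10, 87858265 to 87937042, mm10, plus strand) is transcribed from alternative leading exons and spliced to alternative coding ends, and all 8 transcripts annotated by GENCODE M21 had a value. The sequences below, read from GENCODE transcripts, show what sets these forms apart, since their levels are given separately further on. The leader exon of class 1 transcripts carries 63 coding bases (chr10:87859350-87859412) and that of class 2 transcripts carries 15 (chr10:87861371-87861385), so the forms start the signal peptide differently; capitals mark the start codon.
Class 1 leader: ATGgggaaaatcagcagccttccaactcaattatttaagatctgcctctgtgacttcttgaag
Class 2 leader: ATGaccgcacctgca
At the other end of the coding region, an alternative exon of 52 bases (chr10:87915298-87915349), marked in capitals here, is either skipped or used. Because 52 is not a multiple of 3, its use shifts the reading frame of the last exon, whose coding part is 57 bases where the exon is skipped and 23 bases where it is used. Both sequences start with the last 30 bases of the exon before it.
Exon skipped: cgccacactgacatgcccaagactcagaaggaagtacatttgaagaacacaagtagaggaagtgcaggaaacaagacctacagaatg
Exon used: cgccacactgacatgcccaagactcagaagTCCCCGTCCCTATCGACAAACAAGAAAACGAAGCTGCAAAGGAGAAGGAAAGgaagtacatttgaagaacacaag
The mature hormone lies upstream of this choice, which alters the E peptide that is cut from the precursor.

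Values are taken as FPKM, a fragment count scaled to transcript length and library total, so they are per length and levels of different genes can be set side by side. The 6 libraries had 11804 to 11828 genes above 0, and the number of reads behind a value is unknown. Mitochondrially encoded transcripts made up 10.6 to 18.2% of FPKM in Pth1rΔNLS libraries and 6.47 to 12.8% in WT libraries. Of 12 markers of marrow stroma and the osteoblast lineage, 11 had a value. All 11 passed as lower in Pth1rΔNLS cells (limma adjusted p under 0.05, median log2 fold change -0.82), against 10.4% of all genes tested. Their summed levels were 668 to 763 FPKM in Pth1rΔNLS libraries against 1693 to 2198 FPKM in WT libraries. All 15 macrophage and monocyte markers had a value, and 13 passed as higher in Pth1rΔNLS cells, against 6.97% of all genes tested. The other 2 did not pass. The median log2 fold change was 0.49, with sums of 8662 to 9040 FPKM in Pth1rΔNLS against 6284 to 6586 FPKM in WT. Left-out libraries moved these counts: the stromal count was 7 to 10, lowest without Pth1rΔNLS library 1 or 2, and the macrophage count was 7 to 12, with 8 without Pth1rΔNLS library 2 and 7 without WT library 3. Without both libraries of extreme mitochondrial share they were 6 and 4, with medians of -0.77 and 0.49. The marker lists were chosen with earlier results of these data known, so setting their counts against all genes is no test. Lyz2, which encodes lysozyme and whose own call was lost without any 1 library (limma adjusted p of 0.0649 to 0.102), averaged 2811 ± 32.2 FPKM in Pth1rΔNLS and 2231 ± 75.5 FPKM in WT cells (SD, n = 3 each), so preparations labelled as stromal cells carried abundant myeloid transcripts in both genotypes. Pth1r itself stood at 1.91, 1.72 and 2.99 FPKM in Pth1rΔNLS libraries, against 7.98, 4.72 and 6.24 FPKM in WT libraries, a level that does not check the allele. In such bulk samples, fewer cells of a type and less RNA per cell cannot be told apart, and this holds for every difference reported here.

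In Pth1rΔNLS cells the ligand gene rose while the IGF receptor, the abundant binding proteins, the protease and the adaptor fell. Of the 8 members with a mean of at least 1 FPKM, 1 was higher, 6 were lower and 1 did not pass the test (limma on log2(FPKM + 1), adjusted p under 0.05 over 10900 genes). Among all genes tested, 17.3% passed, 6.97% as higher and 10.4% as lower. Because the members were chosen with earlier results known, their contrast with these shares is no test. The median log2 fold change of the 8 members was -0.82, and that of all genes tested was -0.011. Igfbp3, below the filter, was not tested. Libraries of the 2 genotypes did not overlap for any of the 8 members, nor for 36.6% of all tested genes. With 3 libraries against 3, the exact two-sided permutation test allows no p below 0.1, and each of the 8 members reached that p = 0.1. Each of the 7 calls held when any 1 library was left out.

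**Figure D1:**
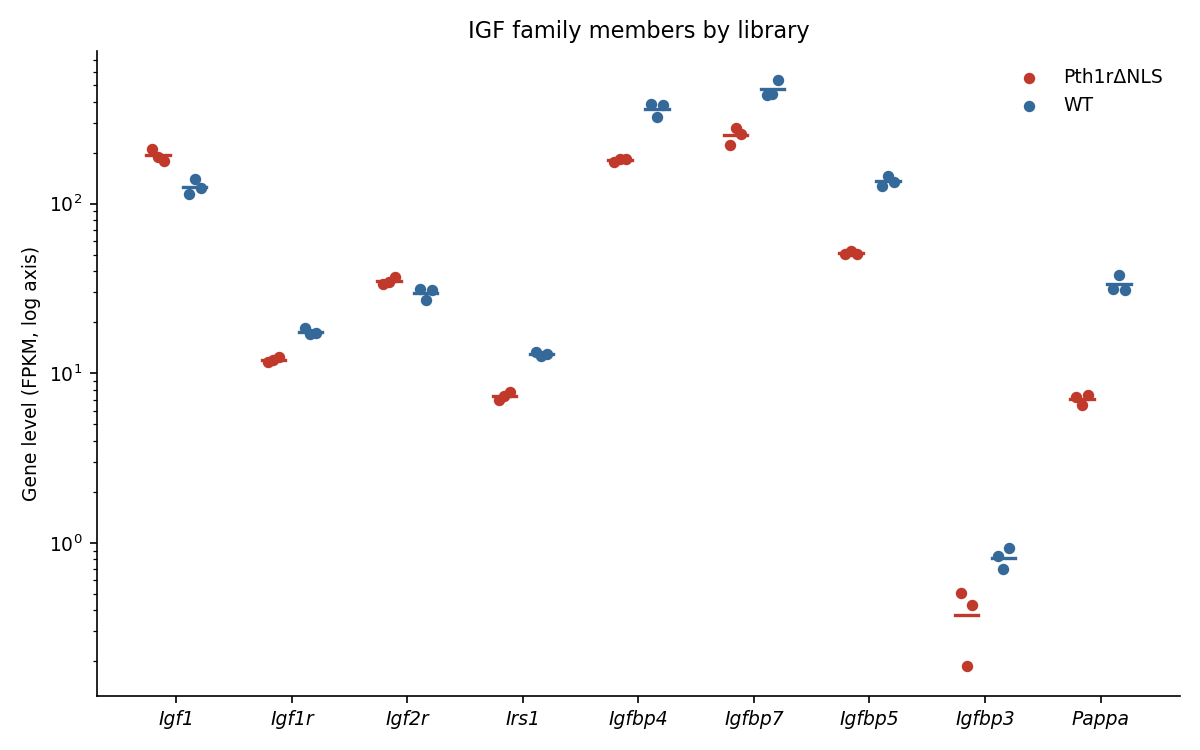
Gene levels of the 9 IGF members with a value, in FPKM on a log axis, with a point per library and a bar at the mean of 3; red is Pth1rΔNLS and blue is WT. Igf1 and Igf2r stand higher in the Pth1rΔNLS libraries and the other 7 genes stand lower, with no overlap between genotypes for any of the 9.

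Igf1 was one of the more abundant transcripts of these cells, above 97.5% of the listed genes. It stood at 212, 188 and 179.6 FPKM in Pth1rΔNLS libraries 1, 2 and 3, against 114, 139.5 and 124 FPKM in WT libraries 1, 2 and 3. Every Pth1rΔNLS library was above every WT library, and the gap between the closest pair was wider than the range within either genotype. The means were 193 ± 16.5 FPKM in Pth1rΔNLS and 126 ± 12.9 FPKM in WT (SD, n = 3 each), a ratio of 1.53. On the log2 scale this was a difference of 0.62 (SE 0.10; adjusted p = 0.00938 by limma). Without WT library 1 and Pth1rΔNLS library 1, which had the lowest and the highest mitochondrial share, it was 0.48 and no longer passed (limma adjusted p = 0.0691).

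The macrophage markers rose in the same libraries as Igf1, and their part in its change was not tested. The ratio of Igf1 to Csf1r, a receptor gene of macrophages, was 1.01, 0.830 and 0.782 in Pth1rΔNLS libraries 1, 2 and 3, against 0.704, 0.946 and 0.757 in WT libraries 1, 2 and 3. These ranges overlapped, as did those of Igf1 over the sum of the 15 macrophage markers, 0.0207 to 0.0240 in Pth1rΔNLS and 0.0181 to 0.0213 in WT. These ratios, and the others below, were chosen after the gene values were seen and are descriptions without a test.

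Among the other 10892 genes tested, those whose log2(FPKM + 1) tracked Igf1 most closely over the 6 libraries were Atp6v0d2, Ccr1, Fcgr3, Cybb and E2f8, each with a Pearson r of 0.996 to 0.999. Fcgr3, also in the macrophage list, stood at 337, 292 and 273 FPKM in Pth1rΔNLS libraries and at 132, 194 and 156 FPKM in WT libraries. It shared with Igf1 the order of libraries within each genotype: library 1 was highest in Pth1rΔNLS and library 2 was highest in WT. An r above 0.95 was shared by 239 genes. How often 6 libraries in 2 groups give values as high as those of the named genes was not tested.

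The rise of Igf1 was carried by several of its transcripts. Of the 8, the 6 with a mean of at least 1 FPKM were tested, and 3 of these were higher in Pth1rΔNLS cells (limma on log2(FPKM + 1), adjusted over 17275 transcripts); of all transcripts tested, 1.82% were higher, 3.39% were lower and 5.21% passed in either direction, while 27.1% showed no overlap between genotypes. The most abundant, ENSMUST00000095360.10, has the class 1 leader, skips the alternative exon and ends in a long last exon. It stood at 123, 113 and 113 FPKM in Pth1rΔNLS libraries, against 75.8, 92.4 and 78.9 FPKM in WT libraries, a log2 fold change of 0.50 (SE 0.09, limma adjusted p = 0.0444). ENSMUST00000122100.2, with the class 2 leader and the alternative exon spliced to the last exon, stood at 68.2, 58.5 and 51.0 FPKM in Pth1rΔNLS libraries, against 30.1, 35.9 and 37.0 FPKM in WT libraries (0.77, SE 0.14, limma adjusted p = 0.0378). ENSMUST00000062862.12, which has the class 2 leader and ends within an extended form of the alternative exon, stood at 8.39, 8.62 and 7.82 FPKM in Pth1rΔNLS libraries, against 4.20, 4.30 and 4.60 FPKM in WT libraries (0.79, SE 0.10, limma adjusted p = 0.0136). Genotypes did not overlap for any of these 3, but all 3 calls depended on single libraries. They were lost as follows: ENSMUST00000095360.10 without any library but WT 2 (limma adjusted p 0.118 to 0.145), ENSMUST00000122100.2 without any 1 library (0.0572 to 0.131) and ENSMUST00000062862.12 without any library but WT 2 (0.0531 to 0.0761).

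Of the other 5 Igf1 transcripts, all below 7 FPKM in every library, the 3 tested did not pass. ENSMUST00000105300.8, class 1 with the alternative exon, stood at 6.63, 4.25 and 3.50 FPKM in Pth1rΔNLS libraries and at 1.18, 3.57 and 0.874 FPKM in WT libraries, where library 2 overlapped the other genotype. ENSMUST00000122386.7, class 1 without the exon, averaged 1.88 ± 0.337 FPKM in Pth1rΔNLS and 0.743 ± 0.282 FPKM in WT (limma adjusted p = 0.144), with no overlap. ENSMUST00000126490.7 averaged 1.28 ± 0.293 and 0.933 ± 0.222 FPKM in Pth1rΔNLS and WT libraries (SD, n = 3 each). ENSMUST00000121952.7 and ENSMUST00000121161.7, both class 2 without the exon, averaged below 1 FPKM in both genotypes.

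**Figure D2:**
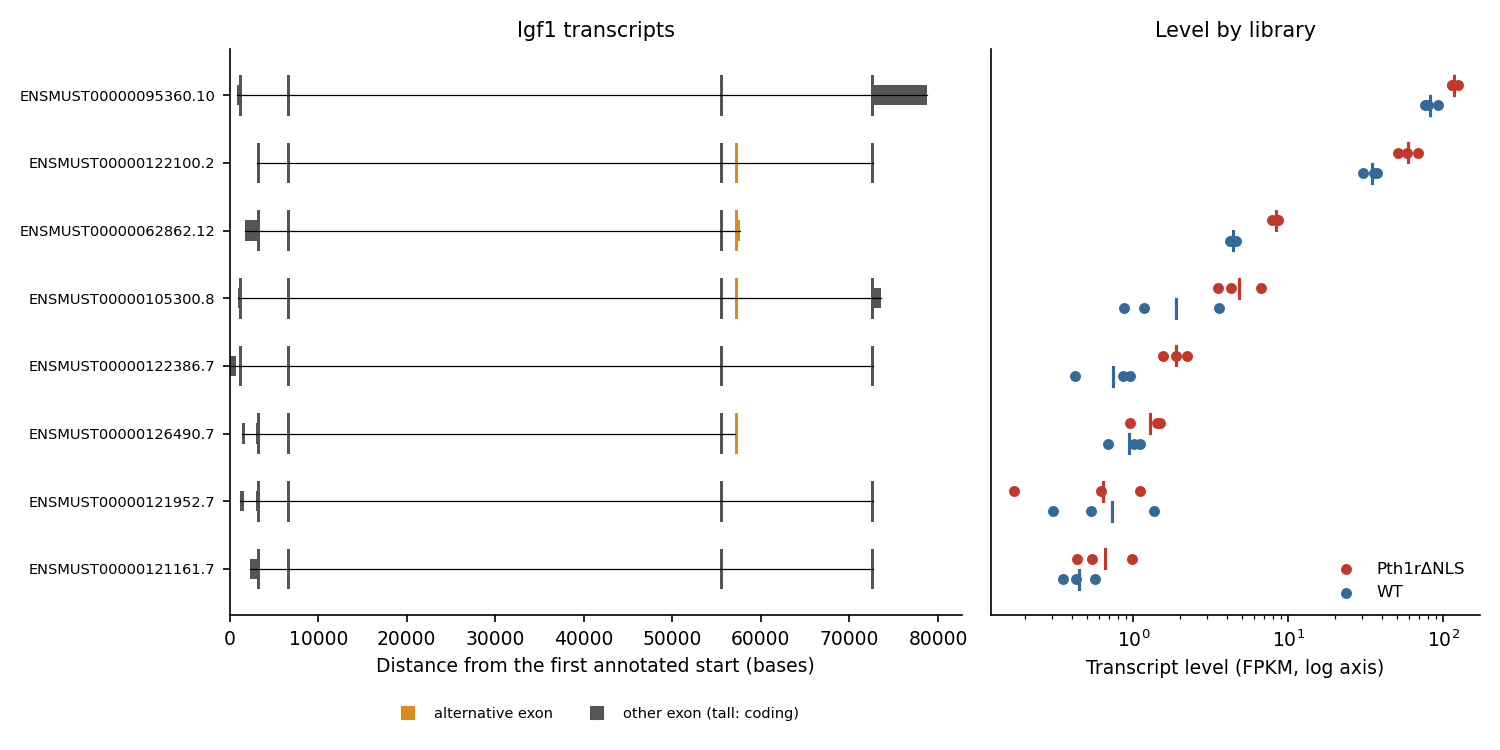
Left, exons of the 8 Igf1 transcripts by distance in bases from the first annotated start, with the 52-base alternative exon in orange, coding parts tall and short exons widened to be visible; right, the level of each transcript in each library in FPKM on a log axis, with a bar at the mean of 3 libraries, red for Pth1rΔNLS and blue for WT. The 3 most abundant transcripts stand higher in every Pth1rΔNLS library than in any WT library, and of the 5 scarcer ones only ENSMUST00000122386.7 shows no overlap.

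Grouped by structure, transcripts that use the alternative exon summed to 84.7, 72.7 and 63.3 FPKM in Pth1rΔNLS libraries, against 36.5, 44.4 and 43.6 FPKM in WT libraries, a ratio of means of 1.77. Transcripts that skip it summed to 127, 116 and 116 FPKM in Pth1rΔNLS libraries, against 77.3, 95.1 and 80.5 FPKM in WT libraries, a ratio of 1.42. The share of Igf1 FPKM in forms with the exon was 40.1, 38.6 and 35.2% in Pth1rΔNLS libraries, against 32.1, 31.8 and 35.1% in WT libraries. The lowest Pth1rΔNLS share lay just above the highest WT share, and the means differed by 4.96 percentage points (38.0 ± 2.47% in Pth1rΔNLS, 33.0 ± 1.83% in WT; exact two-sided permutation p = 0.1, the smallest possible). For only the forms with the exon spliced to the last exon, the share was 30.4 to 35.4% in Pth1rΔNLS libraries. In WT libraries that share was 27.5 to 30.5%, so the ranges overlapped (exact two-sided permutation p = 0.2). The share with the class 2 leader was 36.2 ± 1.98% in Pth1rΔNLS and 32.5 ± 2.24% in WT (SD, n = 3 each), and its ranges overlapped (exact permutation p = 0.2). All of these forms share most of their exons, and StringTie divides reads between them, so transcript values are less certain than the gene sum; the annotated lengths, 7052 bases for ENSMUST00000095360.10 and 651 for ENSMUST00000122100.2, enter their FPKM directly.

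Igf1r, encoding the signalling receptor for IGF-I (chromosome 7, 67952827 to 68233668), fell in Pth1rΔNLS cells. It stood at 11.6, 11.96 and 12.5 FPKM in Pth1rΔNLS libraries, against 18.4, 17.0 and 17.3 FPKM in WT libraries. Values within a genotype were close together, and the log2 difference was -0.51 (SE 0.08; adjusted p = 0.00656 by limma; -0.46 and 0.0838 without the libraries of extreme mitochondrial share). Of its 6 annotated transcripts, 1 had a value. Igf2r (chromosome 17, 12682406 to 12769664), which encodes the mannose 6-phosphate receptor that clears IGF-II and delivers lysosomal enzymes, stood at 33.4, 34.7 and 37.1 FPKM in Pth1rΔNLS libraries, against 31.3, 27.0 and 30.9 FPKM in WT libraries. Genotypes did not overlap, but the log2 fold change of 0.23 (SE 0.08) did not pass (limma adjusted p = 0.115; 0.04995 with library medians set equal). Igf1r over Igf2r was 0.347, 0.344 and 0.338 in Pth1rΔNLS libraries, against 0.588, 0.629 and 0.561 in WT libraries.

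Irs1, the insulin receptor substrate that links both the IGF-I and the insulin receptor to PI3K (chromosome 1, 82233101 to 82291416), stood at 6.98, 7.35 and 7.78 FPKM in Pth1rΔNLS libraries, against 13.3, 12.7 and 13.1 FPKM in WT libraries. The gap between genotypes was far wider than the spread within either (log2 fold change -0.74, SE 0.08, limma adjusted p = 0.00201). On the opposite strand, exons of the gene model Gm9747 cover 2822 bases of the Irs1 transcript, and the use of strand in counting is not stated in the sources used here. Its relative Irs2 stood at 4.31, 4.50 and 4.45 FPKM in Pth1rΔNLS libraries, against 3.73, 3.43 and 3.55 FPKM in WT libraries, without passing (0.25, limma adjusted p = 0.124).

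Of the 4 binding protein genes with a value, Igfbp7 and Igfbp4 stood above all other members in WT cells, Igfbp3 was the scarcest member, and the 3 that were tested fell. Igfbp4, encoding the IGFBP that PAPP-A cuts best and that mostly restrains IGF action (chromosome 11, 99041244 to 99054392), stood at 175, 182 and 183 FPKM in Pth1rΔNLS libraries, against 388, 323 and 379.7 FPKM in WT libraries. The log2 difference was -1.01 (SE 0.09; adjusted p = 0.000900 by limma). Of 3 listed Igfbp4 transcripts, ENSMUST00000017637.12 held 82.1 to 99.0% of the gene's FPKM. The lowest share, in Pth1rΔNLS library 1, came with 30.3 FPKM for the 742-base ENSMUST00000140772.1, which stood at 0.0891 and 0.190 FPKM in Pth1rΔNLS libraries 2 and 3 and at 0.221, 6.33 and 0.265 FPKM in WT libraries.

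Igfbp5, whose protein binds bone matrix as well as IGF (chromosome 1, 72857932 to 72874884), had the largest fall among the binding proteins. It stood at 50.8, 52.4 and 50.8 FPKM in Pth1rΔNLS libraries, against 127, 146 and 135 FPKM in WT libraries (log2 fold change -1.38, SE 0.07, limma adjusted p = 0.000175). Igfbp7, which encodes a secreted relative that binds IGF weakly (chromosome 5, 77349240 to 77408041), stood at 223, 279.8 and 259 FPKM in Pth1rΔNLS libraries, against 440.2, 443 and 536 FPKM in WT libraries (-0.89, SE 0.12, limma adjusted p = 0.00428). Its reads were divided between ENSMUST00000046746.9, with 69.3 to 89.7% of the gene's FPKM, and ENSMUST00000163898.5, whose ranges of 42.9 to 59.9 FPKM in Pth1rΔNLS and 45.4 to 136 FPKM in WT overlapped. The longer of these, ENSMUST00000163898.5, taken in place of the sum, had a log2 fold change of -0.61 that did not pass (limma adjusted p = 0.398), an alternative chosen after seeing the data. Igfbp3 (chromosome 11, 7206086 to 7213923), the main carrier of IGF in blood, was scarce in both genotypes, at 0.509, 0.187 and 0.429 FPKM in Pth1rΔNLS libraries and 0.834, 0.697 and 0.926 FPKM in WT libraries.

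Upstream sequences are shown for Igfbp4 and Igfbp5, the lowered binding protein genes with the smallest p, as RefSeq gives them on GRCm38.p6. They end at the base before the GENCODE gene start. The Igfbp4 sequence (chr11:99040994-99041243, plus strand) has a TATA box core, TATAAA, in capitals, and the Igfbp5 sequence (chr1:72874885-72875115, minus strand) had no match to the 5 motifs searched.
Igfbp4: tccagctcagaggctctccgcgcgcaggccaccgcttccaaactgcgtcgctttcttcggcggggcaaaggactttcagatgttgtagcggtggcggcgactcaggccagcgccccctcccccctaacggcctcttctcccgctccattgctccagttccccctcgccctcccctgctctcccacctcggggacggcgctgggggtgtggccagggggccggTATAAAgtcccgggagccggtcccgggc
Igfbp5: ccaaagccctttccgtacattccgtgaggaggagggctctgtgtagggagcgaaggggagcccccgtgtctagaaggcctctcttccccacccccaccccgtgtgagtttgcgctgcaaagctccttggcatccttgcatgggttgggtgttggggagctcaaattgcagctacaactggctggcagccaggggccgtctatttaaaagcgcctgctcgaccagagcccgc
Motifs were searched on both strands of the 250 bases before each start in RefSeq: the cAMP response element TGACGTCA and its shorter core TGACG, which it contains, the nuclear receptor half-site AGGTCA, the STAT type TTCNNNGAA and TATAAA. Windows were found for 9 of the 10 genes; the missing one is Pappa. TGACGTCA had no match in the 9 windows and was in 1.55% of all 32851 windows, TGACG matched in those of Irs1 and Igf2r (17.8% of all windows), and AGGTCA in those of Igf1, Igf1r and Igf2r (14% of all). TTCNNNGAA had no match (7.02% of all), and TATAAA matched in those of Igfbp4 and Igfbp6 (12.4% of all).

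Pappa, encoding the protease that frees IGF from IGFBP-4 and IGFBP-5 (chromosome 4, 65124174 to 65357509), had the largest change of the members. It stood at 7.29, 6.51 and 7.41 FPKM in Pth1rΔNLS libraries, against 31.3, 38.0 and 31.0 FPKM in WT libraries. The means were 7.07 ± 0.489 FPKM in Pth1rΔNLS and 33.4 ± 3.94 FPKM in WT (SD, n = 3 each), a ratio of 0.211, and the log2 difference was -2.09 (SE 0.11; adjusted p = 0.000168 by limma). It kept its call under all 19 alternatives tried, with adjusted p of 6.79e-05 to 0.0125. The genes that tracked Pappa most closely over the 6 libraries were Irgm1, Sdc2, Rnd3, Clic4 and Adamts12, with a Pearson r of 0.999 to 1.000 each, and 680 of 10892 genes had an r above 0.95. Clic4 shows what such an r carries: it stood at 131, 130 and 131 FPKM in Pth1rΔNLS libraries and 143, 145 and 144 FPKM in WT libraries, a log2 fold change of -0.13 that did not pass (limma adjusted p = 0.145).

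The lowered stromal markers moved in the same libraries as Pappa and the binding proteins, and their part in these falls was not tested. Set against Pdgfrb, a receptor gene of stromal and perivascular cells that averaged 27.0 ± 1.47 FPKM in Pth1rΔNLS and 48.6 ± 3.85 FPKM in WT cells (SD, n = 3 each), the members differed. Pappa over Pdgfrb was 0.285, 0.243 and 0.260 in Pth1rΔNLS libraries, against 0.632, 0.857 and 0.598 in WT libraries. Igfbp5 over Pdgfrb was 1.99, 1.95 and 1.78 in Pth1rΔNLS libraries, against 2.56, 3.30 and 2.59 in WT libraries, again without overlap. Igfbp4 over Pdgfrb was 6.41 to 6.85 in Pth1rΔNLS and 7.29 to 7.84 in WT libraries, a narrower gap, and Igfbp7 over Pdgfrb overlapped, at 8.73 to 10.4 in Pth1rΔNLS and 8.88 to 10.3 in WT libraries. Against the sum of the stromal markers, in which collagen genes weigh most, Igfbp5 also overlapped, at 0.0671 to 0.0761 in Pth1rΔNLS and 0.0577 to 0.0864 in WT libraries, while Pappa did not, at 0.00853 to 0.0109 in Pth1rΔNLS and 0.0142 to 0.0224 in WT libraries. The stromal markers Col1a2, Col1a1, Cxcl12 and Pdgfrb had ratios of means, Pth1rΔNLS over WT, of 0.427, 0.293, 0.292 and 0.555. Those of Igfbp4 and Igfbp7 were 0.495 and 0.537. Igfbp4 thus fell more than Pdgfrb, whereas the fall of Igfbp7 was not told apart from that of Pdgfrb. By ratio of means both fell less than Col1a2, Col1a1 and Cxcl12. How Igfbp4 and Igfbp7 stand relative to stroma depends on the marker chosen.

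Levels of the members relative to each other therefore differed between genotypes. In Pth1rΔNLS cells the order was Igfbp7 (254 ± 28.6 FPKM), Igf1 (193 ± 16.5), Igfbp4 (180.1 ± 4.32), Igfbp5 (51.3 ± 0.900), Igf2r (35.1 ± 1.85), Igf1r (12.03 ± 0.467), Irs1 (7.37 ± 0.403), Pappa (7.07 ± 0.489) and Igfbp3 (0.375 ± 0.168; all SD, n = 3). Neighbours overlapped there for Igf1 and Igfbp4 and for Irs1 and Pappa. In WT cells it was Igfbp7 (473 ± 54.4 FPKM), Igfbp4 (364 ± 35.3), Igfbp5 (136 ± 9.84), Igf1 (126 ± 12.9), Pappa (33.4 ± 3.94), Igf2r (29.7 ± 2.34), Igf1r (17.6 ± 0.734), Irs1 (13.0 ± 0.280) and Igfbp3 (0.819 ± 0.115), and neighbours overlapped for Igfbp5 and Igf1 and for Pappa and Igf2r. The 4 measured binding protein genes summed to 450, 515 and 493 FPKM in Pth1rΔNLS libraries, against 956, 913 and 1051 FPKM in WT libraries. Igf1 over that sum was 0.470, 0.366 and 0.364 in Pth1rΔNLS libraries, against 0.119, 0.153 and 0.118 in WT libraries, a ratio of means of 3.08. Summed macrophage markers were 8662 to 9040 FPKM in Pth1rΔNLS and 6284 to 6586 FPKM in WT libraries. Summed stromal markers were 668 to 763 FPKM in Pth1rΔNLS and 1693 to 2198 FPKM in WT libraries. Macrophage over stromal markers thus also rose, so such a shift is not particular to these members. The part of these markers in it was not tested. Pappa over its substrate gene Igfbp4 was 0.0416, 0.0357 and 0.0405 in Pth1rΔNLS libraries, against 0.0806, 0.117 and 0.0817 in WT libraries.

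**Figure D3:**
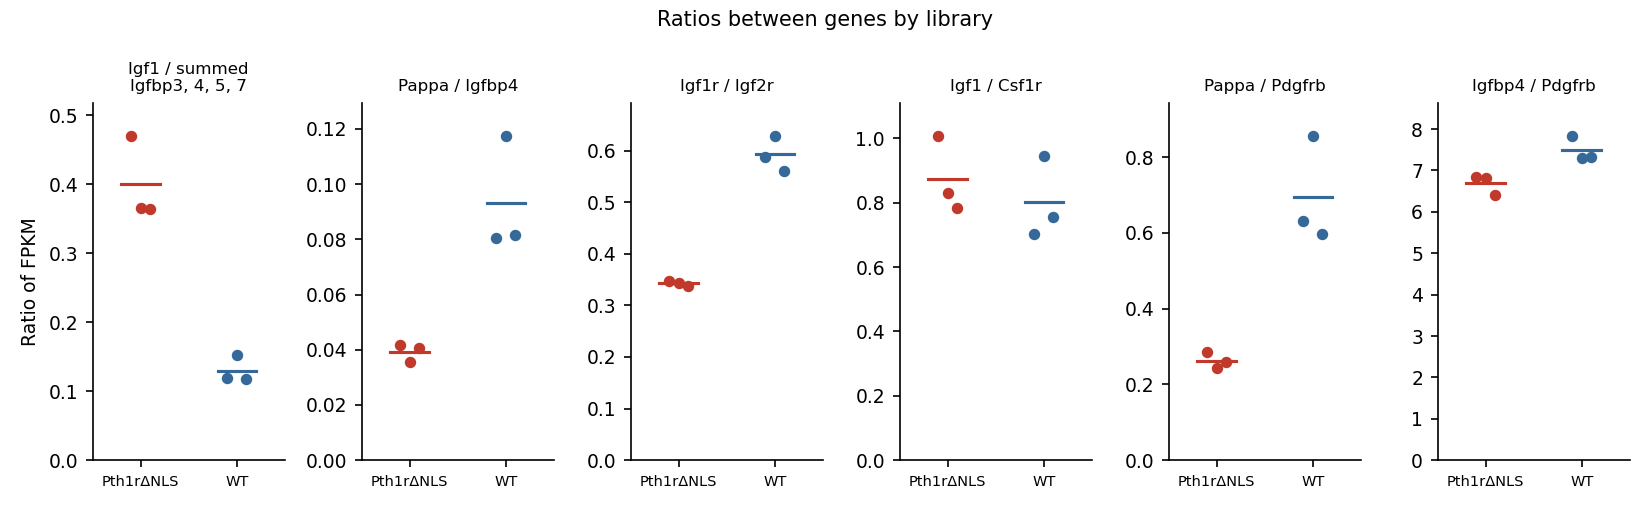
Ratios of FPKM between genes in each library, on linear axes from 0, with a point per library and a bar at the mean of 3; red is Pth1rΔNLS and blue is WT. Igf1 over the summed binding protein genes is higher in Pth1rΔNLS, and Pappa over Igfbp4, Igf1r over Igf2r, Pappa over Pdgfrb and Igfbp4 over Pdgfrb are lower, all without overlap, whereas Igf1 over Csf1r overlaps.

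In the wider pathway, the share of genes that passed in either direction was near that of all genes tested, so that count is no result about the pathway. Of 52 listed genes, 45 had a value and 42 were tested: 0 rose, 8 fell and 34 did not pass, or 19.0% against 17.3% of all genes tested, with a median log2 fold change of 0.029 against -0.011 for all genes tested. All 8 calls were lower, whereas of all genes tested 10.4% passed as lower and 6.97% as higher. With WT library 2 or Pth1rΔNLS library 1 left out, or with array weights, 1 gene of the list passed as higher. At an unadjusted limma p under 0.05, 9 genes of the list were lower and 2 were higher, Irs2 and Tsc1, an inhibitor of mTORC1. Of the 10900 genes tested, 3359 had such a p in either direction. Among other carriers and proteases, 3 of 4 tested genes fell. Igfbp2, a further binding protein gene, stood at 2.42, 3.55 and 2.68 FPKM in Pth1rΔNLS libraries, against 8.52, 6.41 and 5.98 FPKM in WT libraries (-1.03, SE 0.17, limma adjusted p = 0.00926). Htra3 and Htra1, serine proteases of which HTRA1 is known to cut IGFBP-5, averaged 3.37 ± 0.573 and 6.15 ± 0.532 FPKM in Pth1rΔNLS libraries and 7.06 ± 0.240 and 10.1 ± 1.33 FPKM in WT libraries (SD, n = 3 each; limma adjusted p = 0.00497 and 0.0171). Pappa2, the relative of Pappa, was below the filter, at 0.252 to 0.412 FPKM in Pth1rΔNLS and 1.07 to 1.18 FPKM in WT libraries. Stc1, encoding a stanniocalcin, a family of secreted inhibitors of PAPP-A, did not pass (2.24 to 2.73 FPKM in Pth1rΔNLS and 1.64 to 2.10 FPKM in WT; limma adjusted p = 0.198), and Stc2 was not analysed here.

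Among 7 tested adaptors, 3 passed as lower, against 10.4% of all genes tested. So small a part of the list was not tested as a group. Grb10, an imprinted gene whose protein restrains IGF-I and insulin receptor signalling, stood at 17.1, 18.3 and 20.2 FPKM in Pth1rΔNLS libraries, against 43.2, 42.9 and 41.6 FPKM in WT libraries (log2 fold change -1.16, SE 0.08, limma adjusted p = 0.000435). Its relative Grb14 averaged 11.1 ± 0.889 FPKM in Pth1rΔNLS and 18.6 ± 0.387 FPKM in WT (SD, n = 3 each; limma adjusted p = 0.00292), and Shc1, an adaptor to the RAS pathway, averaged 38.5 ± 1.86 and 48.0 ± 3.16 FPKM in Pth1rΔNLS and WT libraries (limma adjusted p = 0.0373). The Shc1 call was lost without any 1 library (0.0577 to 0.123), and that of Htra1 without any library but WT 2 and Pth1rΔNLS 2 (0.0571 to 0.0645).

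By limma, none of 10 tested PI3K and AKT genes passed (1 at an unadjusted p under 0.05, Pik3r1). Nor did any of 5 tested growth hormone axis genes (0 at an unadjusted p under 0.05). Of all genes tested, 17.3% passed in either direction, so lists this short cannot show that either part was unchanged. Ghr, the growth hormone receptor gene, stood at 37.0, 36.9 and 26.5 FPKM in Pth1rΔNLS libraries. In WT libraries it stood at 35.4, 46.4 and 39.5 FPKM (limma adjusted p = 0.305). Downstream, 2 of 13 tested genes fell, or 15.4%, near the share of all genes tested, so that count is no result about this part. Rheb, the GTPase that activates mTORC1, averaged 79.6 ± 2.61 FPKM in Pth1rΔNLS and 105 ± 5.44 FPKM in WT (limma adjusted p = 0.00987). Foxo1, a transcription factor that AKT keeps out of the nucleus, averaged 3.16 ± 0.115 and 5.20 ± 0.343 FPKM in Pth1rΔNLS and WT libraries (limma adjusted p = 0.0104). In the 4 libraries left without those of extreme mitochondrial share, Igfbp2, Rheb and Foxo1 had log2 fold changes of -0.81, -0.33 and -0.52, against -1.03, -0.40 and -0.57 in all 6, and no longer passed (limma adjusted p of 0.0707, 0.0958 and 0.114), and Igfbp2 did not pass by its longest transcript alone (0.332). The second ligand gene, Igf2, stood at 9.85, 9.67 and 9.34 FPKM in Pth1rΔNLS libraries and at 7.13, 18.6 and 5.24 FPKM in WT libraries, where library 2 stood apart from the others. The log2 difference was 0.089 (SE 0.40; adjusted p = 0.908 by limma), and 0.58 without WT library 2, where it passed (limma adjusted p = 0.0463). Insr, the insulin receptor gene, stood at 2.08, 1.72 and 5.47 FPKM in Pth1rΔNLS libraries and at 5.49, 5.40 and 4.90 FPKM in WT libraries (limma adjusted p = 0.184). Without Pth1rΔNLS library 3 its log2 fold change was -1.11 and passed (limma adjusted p = 0.00845).

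**Figure D4:**
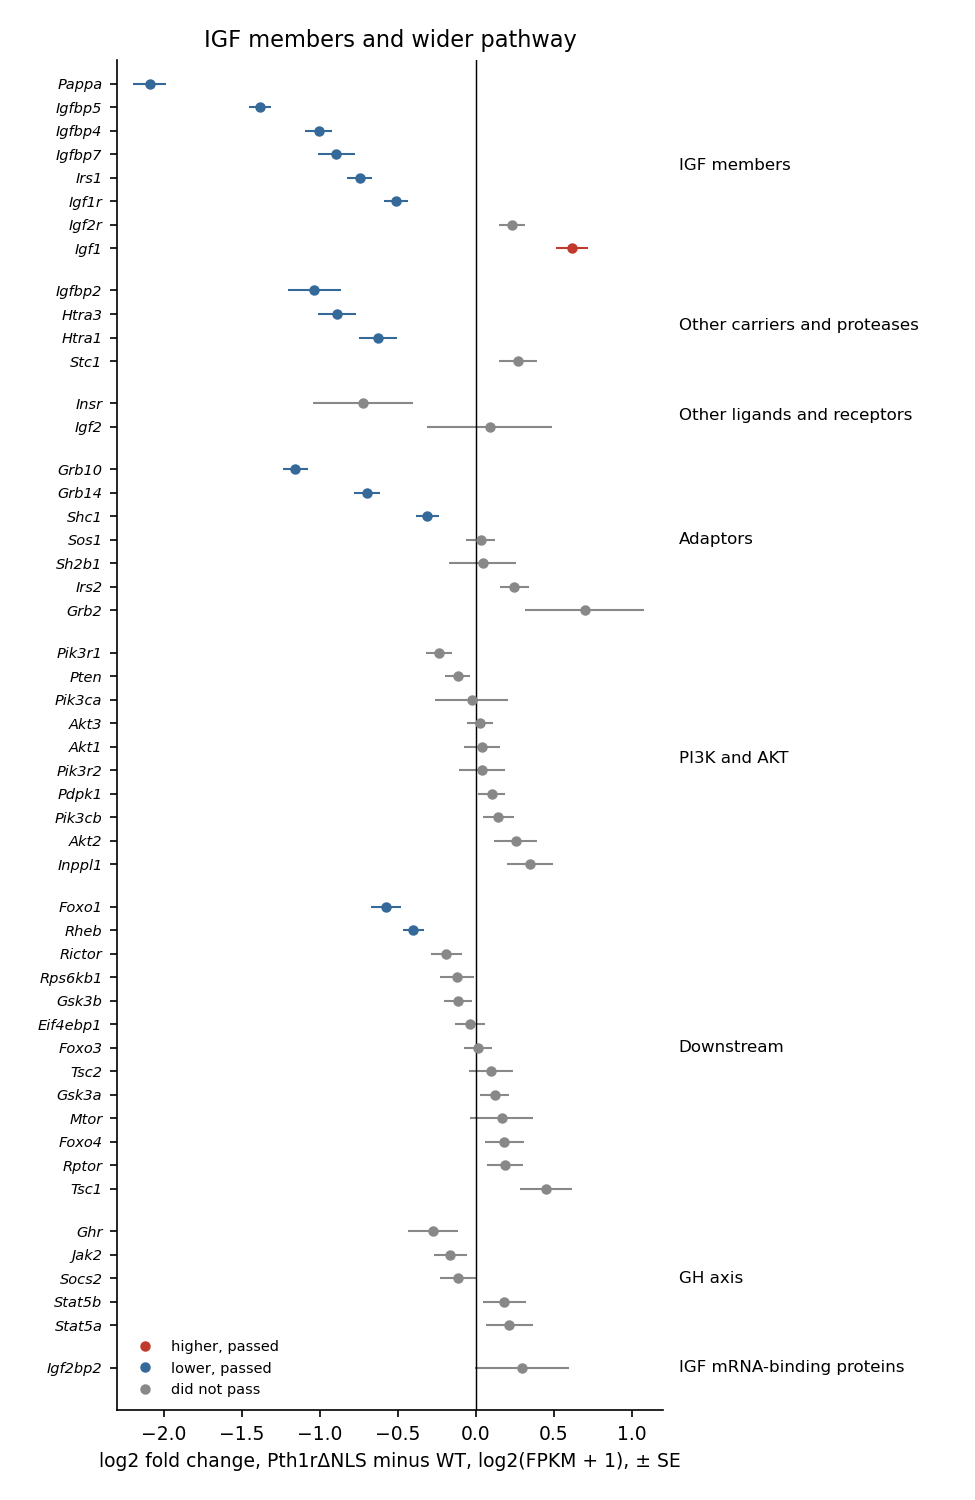
Log2 fold change, Pth1rΔNLS minus WT on log2(FPKM + 1), with its limma standard error, for the 8 tested members and the 42 tested genes of the wider IGF pathway; red passed as higher, blue passed as lower, grey did not pass. Pappa lies farthest to the left at -2.09 and Igf1 is the only gene in red, while the PI3K and AKT genes are all in grey.

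Markers of other cell types differed as well. The 4 tested smooth muscle and pericyte markers passed as lower in Pth1rΔNLS cells (sums of 1091 to 1194 FPKM against 2176 to 2358 FPKM in WT), as did 2 of 3 tested endothelial markers, of which 4 of 7 had a value (sums of 6.28 to 7.35 FPKM in Pth1rΔNLS and 10.5 to 12.6 FPKM in WT). Of all genes tested, 10.4% passed as lower and 6.97% as higher. The endothelial count was 1 without any library but WT 2, as Emcn then did not pass (limma adjusted p of 0.0690 to 0.123). Of 4 tested adipocyte markers Lpl and Fabp4 were higher, but neither passed without the libraries of extreme mitochondrial share (log2 fold changes of 0.42 and 0.49, limma adjusted p of 0.0829 and 0.0803). Cebpa did not pass, nor did Pparg, the adipocyte regulator, at 8.52 to 9.67 FPKM in Pth1rΔNLS and 10.2 to 13.3 FPKM in WT libraries, and Adipoq averaged below 1 FPKM in both genotypes. The 2 granulocyte markers with a value, of 6, were below 1 FPKM in every library, with Camp listed at 0 in Pth1rΔNLS libraries 1 and 3, and the only T cell marker with a value, Cd4, stood at 2.15 to 3.20 FPKM in Pth1rΔNLS and 2.08 to 2.69 FPKM in WT libraries. B cell and erythroid markers were not analysed here. The part of these markers in the IGF results was not tested.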

How the data were processed

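HISAT2, StringTie and the mm10 build are named, per the submitters' processing notes; their versions and settings are not stated in the sources used here. The deposited header names no unit. Values were taken as FPKM as deposited by the authors, because value times transcript length summed to 75.0 to 78.1% of the total expected of FPKM (coefficient of variation 1.49%), while plain sums varied by 3.46%. Whole reads could not be recovered: the best step put 21.7 to 22.8% of low values within 0.1 of an integer, where chance gives 20%, and depth is unknown. Libraries shared at most 1 identical value above 0.

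Transcripts were matched by identifier to GENCODE M21 (23293 of 23351; the other 58 held at most 0.193% of FPKM) and summed per gene. Genotypes were compared on log2(FPKM + 1) with limma 3.58.1 (eBayes with trend, R 4.3.3), Pth1rΔNLS minus WT, two-sided, Benjamini-Hochberg over the 10900 genes averaging 1 FPKM or more, threshold 0.05, and likewise over transcripts. Fold changes on this scale understate low genes. In simulated data of 10900 genes with independent noise, limma recovered 70.5% of 200 genes changed by 1 log2 unit. It made 11 false calls among the unchanged genes. The real data had 1891 calls of varied size, so these rates need not carry over. Tables used Python 3.11.15 and pandas 2.3.3. Members, pathway list and markers were chosen with earlier results of these data known. By rule, the text names all members, wider-list genes past the threshold, 9 wider-list genes whatever their result (3 of which also passed), and the 5 genes most like Igf1 and Pappa. The rule also covered up to 4 markers of highest mean per cell type, of which only some are named. Pappa2, Tsc1, Pik3r1, Csf1r, Adipoq and Pth1r were named after their values were seen. Same-numbered libraries are not a pair by label.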

Additional observations from a re-analysis of the deposited data

How the results depend on the processing

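Each result was recomputed under up to 19 alternatives, 1 of them (the longest listed transcript in place of the sum) chosen after seeing the data. Of 152 values for the 8 tested members, 146 kept direction and side of the threshold and 0 reversed. Pappa, Igfbp4, Igfbp5 and Irs1 kept their calls throughout. Without both libraries of extreme mitochondrial share, 620 genes, 3 wider-list genes and 0 transcripts passed by limma (2520 transcripts at an unadjusted p under 0.05). Leaving out 1 library gave 1051 to 1712 genes against 1891 with all 6, 351 to 736 transcripts against 900, 7 members each time, 6 to 8 genes of the wider list, and a difference in alternative exon share of 3.92 to 6.33 percentage points. Leaving out any library but WT 2 lowered the gene and transcript counts by more than 1.5 times. The longest transcript alone gave 1199 genes. Across scalings the median log2 fold change of all genes was -0.044 (TPM) to 0.026 (quantile normalization), and the calls that were higher numbered 505 of 1544 with TPM and 915 of 1922 with quantile normalization.

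Same-numbered libraries deviated from their group means with correlations of -0.189, -0.0662 and 0.0655 over genes, and not every library correlated best with its own number. With 3 libraries per genotype, such values cannot decide whether same-numbered libraries shared a batch. With the replicate block, 792 genes, 5 members (0 higher), 4 wider-list genes and 0 transcripts passed (2527 transcripts at an unadjusted limma p under 0.05), and Igf1 and Igf1r had adjusted p of 0.0510 and 0.0546. Of the markers, 5 macrophage and 6 stromal ones then passed.

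Among values that changed sign, Emcn alone had passed; it was 0.016 with the longest transcript, where Ghr was 0.070 and Pparg 0.056. Without the libraries of extreme mitochondrial share Cd4 was -0.096, Igf2 -0.074, ENSMUST00000140772.1 -1.42 and ENSMUST00000177092.7 0.077. Leaving out 1 library gave -0.012 to 0.20 for Cd4, -0.25 to 0.58 for Igf2 and -0.98 to 1.47 for ENSMUST00000140772.1. The cause was not tested. Depth is unknown, so values near or below 1 FPKM, such as Igfbp3, carry no counting interval.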
